A study of Mesocricetus auratus with 21 samples.

Results

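*Hormad1* and *Sycp3* encode proteins of the meiotic chromosome axis, and their transcripts were followed in whole testes of the golden hamster (*Mesocricetus auratus*) with and without *Mov10l1*. They are 2 of the 22285 genes of the testis count table, and were taken as the rows whose identifiers the study's supplementary gene tables pair with those names. *Hormad1* is ENSMAUG00000020053, on the minus strand of scaffold KB708292.1:2875313-2902704 of the MesAur1.0 assembly, and *Sycp3* is ENSMAUG00000012167, on the plus strand of KB708138.1:1918318-1933332. These spans are whole gene loci, and the counts were summed over all exons of each. Both names stand in the study's table of genes that differed between genotypes at 9 days post partum (dpp), so the contrast at 9 dpp is not independent of how the pair could be found.

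In meiotic prophase each pair of sister chromatids is folded into loops along a protein axis, on which homologous chromosomes pair and recombine. HORMAD1 carries a HORMA domain, binds the axis where homologues have not yet synapsed, promotes the formation of DNA double-strand breaks there and is removed as synapsis proceeds. SYCP3 is a structural protein of the axial elements, which become the lateral elements of the synaptonemal complex. In the postnatal testis both are known as products of germ cells that enter and pass through meiotic prophase, a stage absent from the newborn testis.

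The 21 RNA-seq libraries came from wild-type (WT) hamsters and from *Mov10l1* KO hamsters, homozygous for a deletion of exon 20 of *Mov10l1*, at 0, 9, 13 and 21 dpp and as adults. *Mov10l1* encodes an RNA helicase of germ cells that is needed to make piRNAs. The deleted allele came from 1 founder female and was crossed to outbred WT animals before heterozygotes were mated, so all KO animals carry that same allele. Each genotype had 2 libraries at each age, with a further WT library (replicate 3) at 9 dpp. Adult WT animals were 65 and 23 weeks old, and adult KO animals 63 and 53 weeks. Both KO libraries of 9 dpp carry the code of 1 animal, so the difference between those 2 does not measure how animals vary, and for other libraries p-values measure the spread between the libraries sequenced. Animal codes begin with a part that some animals share, whose meaning the labels do not state. At 9 dpp the KO animal shares it with WT replicate 3, at 13 dpp each replicate number is 1 such code start in both genotypes, at 21 dpp WT replicate 2 and KO replicate 1 share one, and at 0 dpp no code start holds both genotypes, so code start and genotype cannot be told apart there.

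Library totals ranged from 3550217 counts in a WT library of 13 dpp to 77527451 in a WT library of 9 dpp, and the 3 most counted genes held 5.31% to 42.2% of a library. Levels are given as CPM, the counts scaled to a common library size after TMM normalization (edgeR) over all 21 libraries. Libraries of 0 and 9 dpp were single-end and the others paired-end, so no test was made between those 2 sets of ages. *Mov10l1* itself was lower in every KO library than in every WT library of its age, at 10.2 and 10.8 CPM against 49.3 and 86.0 CPM at 0 dpp, and at 0.128 to 2.44 CPM in KO libraries of the later ages against 18.2 to 139 CPM in WT. Sertoli cell markers, of which 4 of 7 had an identifier, summed to between 717 and 6344 CPM in all 21 libraries, and the germ cell markers *Ddx4* and *Dazl* to between 1.59 and 951 CPM.

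In WT testes *Sycp3* was present from birth and rose steeply between 13 and 21 dpp. Its level was 19.1 and 11.0 CPM at 0 dpp, 10.5, 10.5 and 6.40 CPM at 9 dpp, 20.7 and 29.7 CPM at 13 dpp, 285 and 216 CPM at 21 dpp, and 186 and 193 CPM in adults. The 4 libraries of 21 dpp and adults stood far above the other 7 WT libraries, and those of 9 dpp were the lowest. *Hormad1* followed a steeper course in WT, at 4.72 and 2.33 CPM at 0 dpp, 4.49, 3.52 and 1.68 CPM at 9 dpp, 4.88 and 7.07 CPM at 13 dpp, 266 and 234 CPM at 21 dpp, and 217 and 275 CPM in adults. Relative to the adult WT mean, newborn WT testes held 1.43% of the *Hormad1* level and 7.95% of the *Sycp3* level, and WT testes of 13 dpp held 2.43% and 13.3%. No gene lengths were at hand, so the levels of the 2 genes are not compared with each other.

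In KO testes both transcripts stayed below 10 CPM in every library after birth. *Sycp3* was at 22.8 and 16.2 CPM at 0 dpp, 4.50 and 5.35 CPM at 9 dpp, 4.97 and 1.40 CPM at 13 dpp, 4.59 and 4.54 CPM at 21 dpp, and 8.75 and 6.42 CPM in adults. *Hormad1* was at 9.51 and 8.51 CPM at 0 dpp, 1.58 and 1.69 CPM at 9 dpp, 4.83 and 0.122 CPM at 13 dpp, 0.0637 and 0.289 CPM at 21 dpp, and 5.27 and 4.77 CPM in adults. Among the 10 groups of genotype and age, both genes were highest in WT of 21 dpp and in WT adults. For *Hormad1* those 2 groups overlapped, KO of 0 dpp came next without reaching them, and KO of 21 dpp was lowest, below all libraries of every other group but KO replicate 2 of 13 dpp. For *Sycp3* WT of 13 dpp came next and overlapped KO of 0 dpp, and the 3 lowest groups were KO of 9, 21 and 13 dpp, whose ranges all overlapped.

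**Figure D1:**
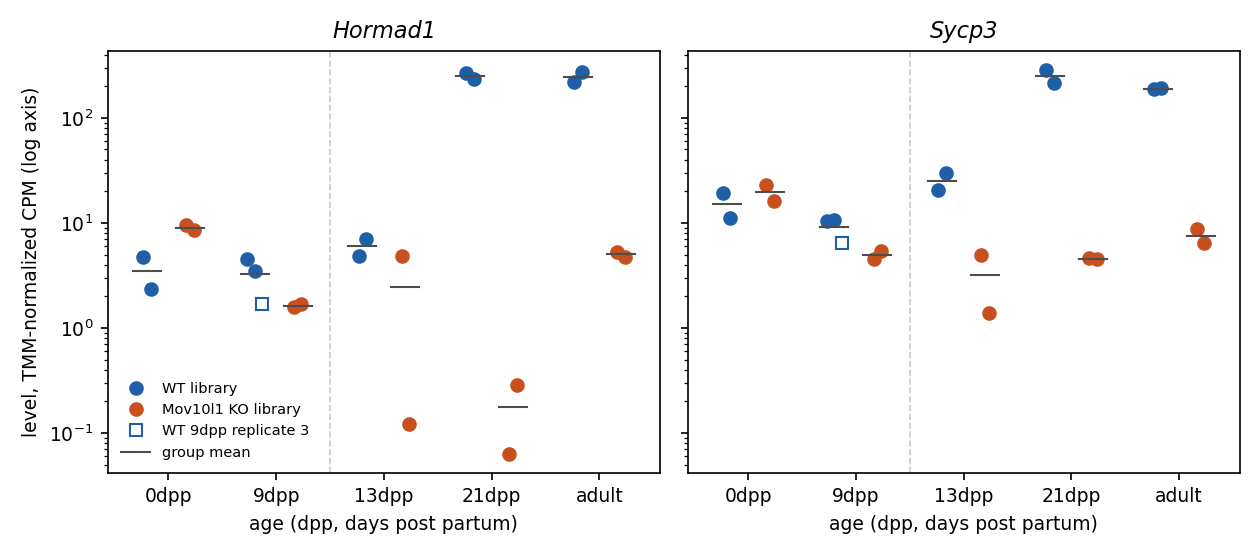
Levels of Hormad1 and Sycp3 in each of the 21 libraries, in CPM on a log axis, by age, with WT in blue, Mov10l1 KO in orange, the group mean as a bar and WT replicate 3 of 9 dpp as an open square. The dashed line parts single-end from paired-end libraries. The 4 WT libraries of 21 dpp and adults sit between 186 and 285 CPM for both genes, and at 21 dpp the KO libraries lie at 0.0637 and 0.289 CPM of Hormad1 and at 4.59 and 4.54 CPM of Sycp3.

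At birth the KO libraries held more *Hormad1* than the WT libraries, without overlap, and *Sycp3* overlapped between genotypes. Genotypes were tested 1 age at a time with the quasi-likelihood test of edgeR, p-values were adjusted by Benjamini-Hochberg over all genes tested at that age, and a gene was called where its adjusted p fell under 0.01. The log2 fold change (KO over WT) of *Hormad1* at 0 dpp was 1.30 (SE 0.25), and its adjusted p by edgeR of 0.0116 lay just outside the call, where 0.991% of 16341 genes were called higher. DESeq2 called it, with an adjusted p of 0.00027. For *Sycp3* the log2 fold change was 0.35 (SE 0.22, edgeR adjusted p = 0.40), with a 95% interval from -0.09 to 0.78. The summed level of *Ddx4* and *Dazl* was 126 and 158 CPM in these WT libraries and 168 and 219 CPM in these KO libraries, with a log2 fold change of 0.10 for *Ddx4* and 0.83 for *Dazl*, of which edgeR called *Dazl*. Other germ cell markers did not move alike. The 9 of spermatogonia ran from -1.54 to 1.66, with 1 called lower and 0 higher, where 0.918% of all genes were called lower. The 5 of later germ cells ran from -3.67 to 1.15, with 1 called lower and 1 higher. The 4 Sertoli markers summed to 1796 and 2053 CPM in WT and to 1104 and 1373 CPM in the KO, with 2 called lower, and the Leydig cell marker *CYP11A1*, with an identifier as 1 of 4, was called higher at 1.03. *Dazl*, 3 of the 4 Sertoli markers and 3 of the 5 later germ cell markers stand in the study's table of genes that differed at 0 dpp. Their shifts are therefore not independent evidence of a direction. The part of these shifts in the *Hormad1* difference was not tested. In bulk RNA fewer cells of a type and less RNA per cell cannot be told apart, here and in every comparison that follows.

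At 9 dpp both genes were lower in the KO libraries than in WT replicates 1 and 2, the libraries the study compared. These WT libraries share no code start with the KO animal. *Sycp3* fell by 1.13 on the log2 scale (SE 0.11, edgeR adjusted p = 0.0013), which is 2.18-fold, and *Hormad1* fell by 1.33 (SE 0.16, edgeR adjusted p = 0.0025), which is 2.51-fold, in a fit that counts 2 libraries of 1 KO animal as 2. At that age 3.20% of 15570 genes were called lower. WT replicate 3, which shares its code start with the KO animal, held 6.40 CPM of *Sycp3*, still above both KO libraries, and 1.68 CPM of *Hormad1*, between the 2 KO libraries on the TMM scale and above both with RLE size factors. With all 5 libraries the log2 fold changes were -0.93 for *Sycp3* and -1.02 for *Hormad1*, and neither was called by edgeR (adjusted p = 0.066 and 0.16), while DESeq2 called *Sycp3* alone (adjusted p = 0.0017 and 0.067). With the 2 KO libraries summed into 1 and all 3 WT libraries kept, neither gene was called (edgeR adjusted p = 0.35 for *Sycp3* and 0.55 for *Hormad1*). WT replicate 3 alone against the KO libraries gave -0.43 for *Sycp3* and -0.09 for *Hormad1* (edgeR adjusted p = 0.13 and 0.86), where the spread comes from 2 libraries of 1 KO animal and does not measure how animals vary.

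Germ cell markers were lower in the KO libraries as well. Within WT they did not all follow the pair. Replicate 3 held the most *Ddx4*, at 24.4 CPM, and the least *Dazl*, at 16.2 CPM. *Ddx4* and *Dazl* together summed to 40.6 to 51.9 CPM in the 3 WT libraries of 9 dpp and to 15.3 and 17.5 CPM in the KO libraries. All 9 spermatogonial markers were called lower in the KO at this age by edgeR, where 3.20% of all genes were. Their log2 fold changes lay between -2.54 and -0.75, and their summed level was 89.5 to 157 CPM in WT against 74.0 to 76.6 CPM in KO. The study's table of genes that differed at this age holds those 9 genes and also *Ddx4* and *Dazl*. Their lower levels at 9 dpp are therefore not independent evidence of a direction. Among somatic markers *CYP11A1* (-0.44), 1 of 2 of endothelium and 1 of 3 of peritubular myoid cells were called lower. These also stand in that table. None of the 4 Sertoli markers was called. The part of these shifts in the *Hormad1* and *Sycp3* values was not tested.

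At 13 dpp the 2 KO libraries differed more from each other than at any other age. *Hormad1* was at 4.83 CPM (71.5 counts) in KO replicate 1 and at 0.122 CPM (4 counts, whose 95% Poisson interval is 0.0332 to 0.312 CPM) in KO replicate 2. Replicate 1 thus stood beside WT replicate 1, at 4.88 CPM, and replicate 2 far below WT replicate 2, at 7.07 CPM. The groups did not overlap on the TMM scale but overlapped with RLE size factors. The log2 fold change of *Hormad1* was -1.43 (SE 1.16, edgeR adjusted p = 0.66), and it was -5.64 without KO replicate 1 (edgeR adjusted p = 0.00013) and -0.37 without KO replicate 2 (edgeR adjusted p = 1.0). In such fits 1 KO library remains and the WT libraries alone give the spread.

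*Sycp3* was lower in both KO libraries of 13 dpp than in both WT libraries, with a log2 fold change of -3.13 (SE 0.62), but at an edgeR adjusted p of 0.060 it was not called. Only 0.121% of 13254 genes were called lower at that age. DESeq2 called *Sycp3* (adjusted p = 1.7e-05), and its log2 fold change was -4.29 without KO replicate 1 (edgeR adjusted p = 1.9e-05) and -2.42 without KO replicate 2 (edgeR adjusted p = 0.071). With the code start, here the replicate number, as a block, edgeR called both genes, at -3.30 for *Sycp3* (adjusted p = 6.4e-12) and -2.31 for *Hormad1* (adjusted p = 0.0048). For *Hormad1* the 2 blocks differed. Replicate 1 held 4.83 CPM in KO against 4.88 CPM in WT, and replicate 2 held 0.122 against 7.07 CPM. Few libraries are left to estimate the spread in that fit, so these p-values rest largely on the spread of other genes. *Ddx4* and *Dazl* summed to 10.2 and 2.95 CPM in KO replicates 1 and 2 against 78.7 and 95.9 CPM in WT. In these KO libraries the log2 ratio of *Hormad1* counts was -0.09 and -3.98 to *Dazl*, and -0.09 and -3.09 to *Ddx4*. The 9 spermatogonial markers summed to between 42.6 and 48.8 CPM in the KO and between 144 and 217 CPM in WT. The 5 of later germ cells summed to between 5.36 and 13.6 CPM in the KO. The part of these markers in the *Hormad1* difference was not tested.

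At 21 dpp the separation was widest. *Sycp3* fell by 5.95 on the log2 scale (SE 0.26, edgeR adjusted p = 6.6e-06), from 285 and 216 CPM in WT to 4.59 and 4.54 CPM in the KO. *Hormad1* fell by 10.32 (SE 0.39, edgeR adjusted p = 4.4e-06), and 20.9% of 14849 genes were called lower at this age. KO replicate 1 held 1 *Hormad1* count, with a 95% Poisson interval of 0.00161 to 0.355 CPM, and KO replicate 2 held 10 counts, with an interval of 0.139 to 0.532 CPM. These intervals cover counting error only. The KO mean was 0.0706% of the WT mean for *Hormad1* and 1.82% for *Sycp3*. *Ddx4* and *Dazl* summed to 395 and 581 CPM in WT and to 1.59 and 2.26 CPM in the KO, and the 4 Sertoli markers to 1849 and 1901 CPM in WT and 6155 and 6344 CPM in the KO. Their part in the fold changes was not tested.

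In adults both genes were again called lower in the KO. *Sycp3* fell by 4.67 on the log2 scale (SE 0.19, edgeR adjusted p = 8.4e-07), to 4.00% of the WT mean, and *Hormad1* fell by 5.64 (SE 0.20, edgeR adjusted p = 4.0e-07), to 2.04% of the WT mean. In this comparison 37.2% of 15766 genes were called lower, and the median log2 fold change of all genes was 0.14. The summed level of the 9 spermatogonial markers was 51.8 and 60.9 CPM in WT adults and 227 and 231 CPM in KO adults, that of *Ddx4* and *Dazl* 815 and 951 CPM against 15.61 and 17.04 CPM, and that of 5 markers of later germ cells 5306 and 5833 CPM against 11.3 and 11.4 CPM. Of the 9 spermatogonial markers 4 were called higher by edgeR, where 37.2% of all genes were called higher as well. The log2 fold changes of the 9 ran from -1.0 to 3.47, so the members did not move alike. None of these markers was at 0 in all libraries of a group. The part of these shifts in the values of *Hormad1* and *Sycp3* was not tested.

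**Figure D2:**
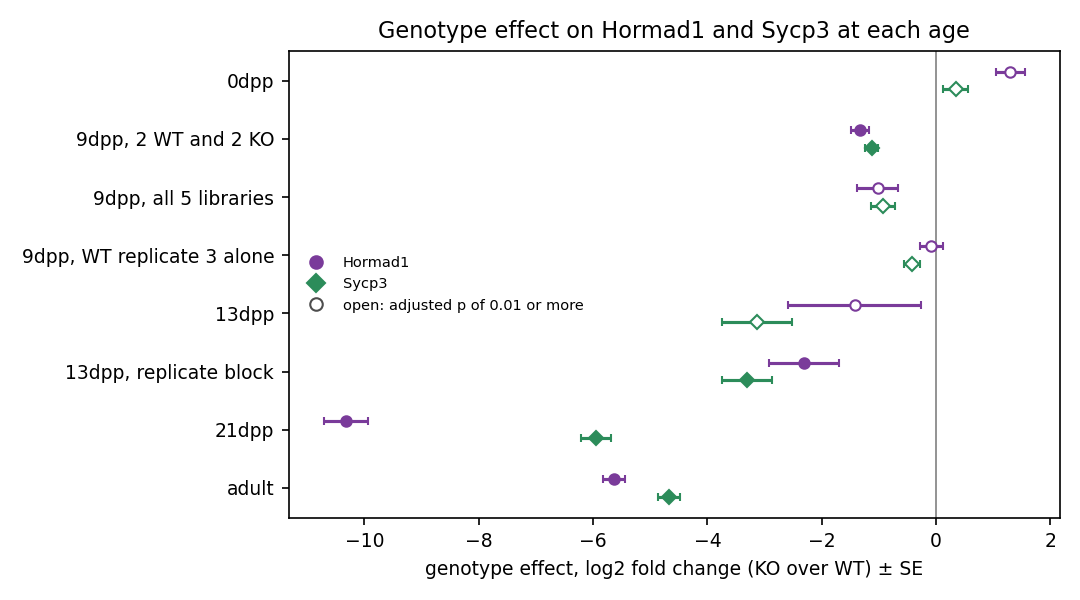
Genotype effect on Hormad1 (circles) and Sycp3 (diamonds) at each age as log2 fold change of KO over WT with its SE, from edgeR, with alternatives at 9 and 13 dpp. Filled symbols have an adjusted p below 0.01. Both genes lie above 0 at birth and below 0 at 9 dpp, 21 dpp and in adults, and Hormad1 reaches -10.32 at 21 dpp.

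Changes with age were tested within a genotype, in 1 edgeR fit per read layout. The fit of 0 and 9 dpp counts the 2 KO libraries of 9 dpp, from 1 animal, as 2. Its p-values do not measure how KO animals of 9 dpp vary. From 0 to 9 dpp both genes fell in the KO, *Sycp3* by 1.96 on the log2 scale (SE 0.23, edgeR adjusted p = 1.5e-05) and *Hormad1* by 2.43 (SE 0.26, edgeR adjusted p = 6.9e-06), where 30.7% of 16812 genes were called lower. In WT neither change was called, at -0.51 for *Sycp3* (edgeR adjusted p = 0.063) and 0.17 for *Hormad1* (edgeR adjusted p = 0.58). The difference between the genotypes in this change was -2.60 (SE 0.37) for *Hormad1*, which was called (edgeR adjusted p = 0.0015), beside 3.10% of all genes called lower in the same contrast. It lost the call without WT replicate 1 of 9 dpp (-2.40, edgeR adjusted p = 0.0108) and with WT replicate 3 included (-2.30, edgeR adjusted p = 0.028). For *Sycp3* it was -1.45 (SE 0.32, edgeR adjusted p = 0.0152), which edgeR did not call and DESeq2 did (adjusted p = 0.00015).

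Between 13 and 21 dpp the WT testes gained both transcripts, and no change was called in the KO testes. In WT *Hormad1* rose by 5.34 on the log2 scale (SE 0.88, edgeR adjusted p = 0.0011), which is 40.5-fold, and *Sycp3* by 3.23 (SE 0.43, edgeR adjusted p = 0.0003), which is 9.41-fold, where 6.39% of 16580 genes were called higher. In the KO the changes were -3.38 for *Hormad1* (SE 1.18, edgeR adjusted p = 0.079) and 0.54 for *Sycp3* (SE 0.45, edgeR adjusted p = 0.47). The difference between genotypes was -8.72 for *Hormad1* (SE 1.42, edgeR adjusted p = 0.0028), with 3.43% of all genes called lower, and -2.69 for *Sycp3* (SE 0.61, edgeR adjusted p = 0.0150), not called by edgeR. The call for *Hormad1* was lost without KO replicate 1 of 13 dpp, at -4.73, without KO replicate 1 of 21 dpp, at -8.29, and without KO replicate 2 of 21 dpp, at -10.37 (edgeR adjusted p = 0.033, 0.018 and 0.021). Without KO replicate 1 of 13 dpp the KO change of *Hormad1* turned to 0.69 (edgeR adjusted p = 0.71), and without KO replicate 2 of 13 dpp it was -4.52 and was called (edgeR adjusted p = 0.00033).

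From 21 dpp to adulthood *Hormad1* was higher in both adult KO libraries, at 136 and 156 counts, than in both KO libraries of 21 dpp, at 1 and 10 counts. That change was 4.43 on the log2 scale (SE 1.09) and missed the call narrowly (edgeR adjusted p = 0.0111), in a contrast where 7.71% of 16580 genes were called higher, while DESeq2 called it (adjusted p = 0.0024). For *Sycp3* the KO change was 0.64 (SE 0.42, edgeR adjusted p = 0.29), with a 95% interval from -0.18 to 1.47. Neither gene was called in WT, at -0.24 for *Hormad1* and -0.62 for *Sycp3* (edgeR adjusted p = 0.78 and 0.18). The genotype effect differed between the 2 ages by 4.67 for *Hormad1* and 1.27 for *Sycp3*, neither of them called (edgeR adjusted p = 0.0122 and 0.089), beside 14.9% of all genes called higher.

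The counts of the 2 genes within a library give a ratio that no normalization changes. In WT the log2 ratio of *Hormad1* to *Sycp3* counts was -2.02 and -2.24 at 0 dpp, -1.23, -1.58 and -1.93 at 9 dpp, -2.09 and -2.07 at 13 dpp, -0.10 and 0.11 at 21 dpp, and 0.22 and 0.51 in adults. The WT libraries of 21 dpp and adults thus held relatively more *Hormad1* than all younger WT libraries. In KO testes the log2 ratio was -1.26 and -0.93 at 0 dpp, -1.51 and -1.67 at 9 dpp, -0.05 and -3.52 at 13 dpp, -6.17 and -3.97 at 21 dpp, and -0.73 and -0.43 in adults. It lay above both WT libraries at 0 dpp, within the WT range at 9 dpp, on either side of WT at 13 dpp, and below both WT libraries at 21 dpp and in adults.

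The lowest ratios rest on few counts. At 21 dpp KO replicate 1 held 1 *Hormad1* count against 72 of *Sycp3*, with an exact 95% interval of the log2 ratio from -11.49 to -3.65, and KO replicate 2 held 10 against 157, with an interval from -5.06 to -3.06. Both intervals lie below the ratios of the WT libraries of that age. At 13 dpp the intervals were -0.53 to 0.45 for KO replicate 1 and -5.46 to -2.07 for KO replicate 2, so the ratios of the 2 KO libraries differed beyond counting error. Reads that overlap several genes were counted as fractions, which bears on such low values, and 71.5 counts in KO replicate 1 of 13 dpp include at least 1 such fraction.

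**Figure D3:**
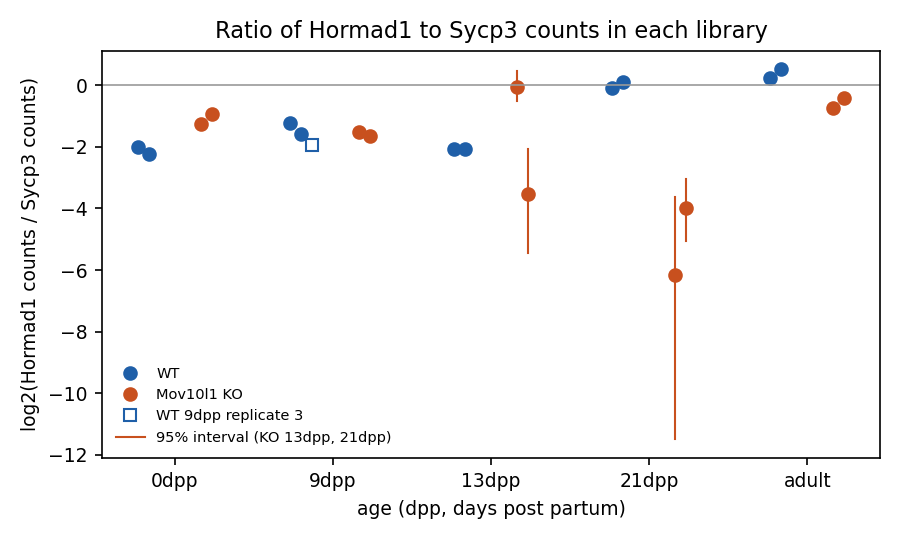
Log2 of Hormad1 counts over Sycp3 counts in each library, by age, with WT in blue, Mov10l1 KO in orange, WT replicate 3 of 9 dpp as an open square and exact 95% intervals for KO libraries of 13 and 21 dpp. WT libraries lie between -2.24 and -1.23 up to 13 dpp and at 0.22 and 0.51 in adults, and the KO libraries of 21 dpp lie at -6.17 and -3.97.

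Set against *Dazl*, an RNA-binding protein gene of germ cells, the pair changed places with age. In WT the log2 ratio of *Sycp3* to *Dazl* counts was -2.24 and -1.61 at 0 dpp and 0.70 and 1.14 in adults, and that of *Hormad1* to *Dazl* was -4.48 and -3.63 at 0 dpp and 1.22 and 1.36 in adults. In KO testes of 21 dpp the log2 ratio of *Sycp3* to *Dazl* was 1.65 and 1.27, above both WT libraries at 0.50 and 0.49. *Hormad1* went the other way in the same libraries, at -4.52 and -2.70 against 0.39 and 0.60 in WT. In KO adults both ratios were below those of WT, at -0.36 and -0.77 for *Sycp3* and -1.09 and -1.19 for *Hormad1*.

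*Ddx4*, which encodes the germ cell RNA helicase VASA, gave another order. At 21 dpp the log2 ratio of *Sycp3* to *Ddx4* was 5.17 and 3.59 in the KO, where *Ddx4* had 2 and 13 counts, and -0.41 and -0.16 in WT. *Hormad1* to *Ddx4* overlapped between genotypes at that age, at -1.0 and -0.38 in the KO, from 1 and 10 *Hormad1* counts, and -0.51 and -0.04 in WT. In adults both members stood higher against *Ddx4* in the KO than in WT, *Sycp3* at 0.59 and 0.45 against -1.97 and -2.11, and *Hormad1* at -0.14 and 0.02 against -1.75 and -1.60. At 9 dpp the log2 ratio of *Sycp3* to *Ddx4* was -0.46 and -0.38 in the KO, above the 3 WT libraries at -1.93 to -0.81. A fall of *Sycp3* relative to *Ddx4* was therefore not seen at 9 dpp, at 21 dpp or in adults. Against *Dazl* it stood higher in the KO at 9 and 21 dpp and lower in adults, so the direction depends on the reference gene. Its level in CPM was lower in the KO at each of these ages, and the reason for that was not tested.

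**Figure D4:**
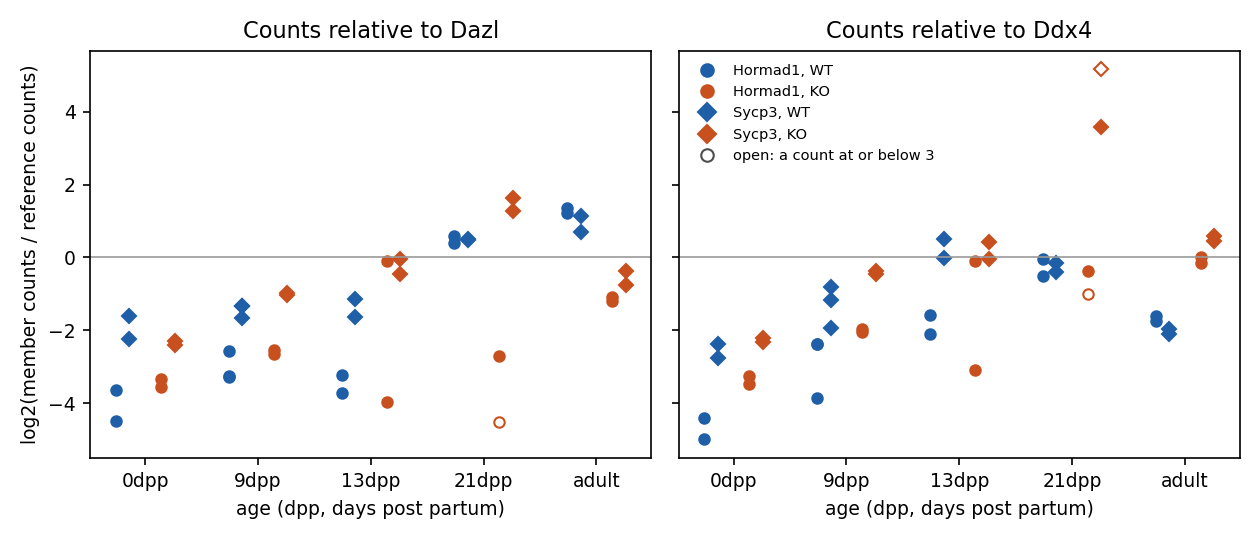
Log2 of Hormad1 counts (circles) and Sycp3 counts (diamonds) over the counts of Dazl (left) and Ddx4 (right) in each library, by age, with WT in blue and Mov10l1 KO in orange. Open symbols rest on a count at or below 3. In the KO libraries of 21 dpp Sycp3 lies above WT in both panels, and Hormad1 lies below WT against Dazl.

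Other genes of meiotic chromosomes and of entry into meiosis were read from a list of 63, of which 18 had an identifier, 16 of them through the study's table of genes that differed at 9 dpp. Among the 18, 3 belong to entry into meiosis, *Dazl*, *Boll* and *Meioc*, and *Dazl* also served as a germ cell marker above. Of the 18, 5 stand in its table of genes that differed at 0 dpp, among them *Shoc1* and *Sun1*, whose identifiers come from there alone. Counts at 0 and 9 dpp are therefore not independent evidence of a direction. Counts at later ages also concern only genes that the study had listed for a genotype difference, as the rest of the list could not be read. At 0 dpp edgeR called 4 of the 18 higher in the KO, where 0.991% of all genes were called higher, with a median log2 fold change of 0.72 beside 0.02 over all genes. All 4, *Dazl*, *Atr*, *Shoc1* and *Spata22*, are in the study's table of that age. *Spata22*, a partner of MEIOB on single-stranded DNA, rose by 1.63. DESeq2 called 9 higher, where it called 1.76% of all genes higher, and the edgeR count changed when 1 library was left out. At 9 dpp 13 of the 18 were called lower, where 3.20% of all genes were, with a median of -1.15 beside -0.01 over all genes. With all 5 libraries edgeR called 1, where 0.355% of all genes were called lower.

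Of the meiotic cohesin genes, 2 had an identifier. *Smc1b* was called lower at 9 dpp (-1.78), 21 dpp (-7.89) and in adults (-4.39), and *Stag3* at the same ages (-1.57, -6.06 and -5.28). The synaptonemal complex genes *Sycp1*, which encodes the transverse filament, *Syce1* and *Tex12*, of the central element, were called lower at those 3 ages too, with *Sycp1* at -0.96, -8.80 and -4.15. At 13 dpp edgeR called 0 of the 18, where 0.121% of all genes were called lower. Still, 16 had an unadjusted edgeR p below 0.05 and a lower level in the KO, as did 1217 of 13254 genes. DESeq2 called 12 lower, where it called 1.30% of all genes lower. The median log2 fold change of the 18 at that age was -3.15 beside 0.02 over all genes, near that of *Sycp3* and below that of *Hormad1*.

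At 21 dpp all 18 were called lower by edgeR, where 20.9% of all genes were, with log2 fold changes from -9.70 for *Meioc*, a gene of entry into meiosis, to -1.55 for *Sun1*, which encodes an inner nuclear membrane protein that holds telomeres. The median was -6.41 beside 0.04 over all genes. The estimate for *Hormad1*, -10.32 (SE 0.39), lay beyond each of the 18, and *Sycp3* at -5.95 lay inside their range. *Hormad1*, with 1 and 10 KO counts, was close to *Meioc* (SE 0.37) and *Majin* (-9.59, SE 0.43), and their order was not tested. In adults 17 of the 18 were called lower, where 37.2% of all genes were, with a median of -3.61 beside 0.14 over all genes, and *Shoc1*, a crossover factor, at -0.53 was not. From 21 dpp to adulthood in the KO, 10 of the 18 were called higher, where 7.71% of all genes were, and the median change was 1.75, with *Majin*, of the telomere attachment complex, at 4.78 and *Sycp1* at 3.84, beside 4.43 for *Hormad1* and 0.64 for *Sycp3*.

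**Figure D5:**
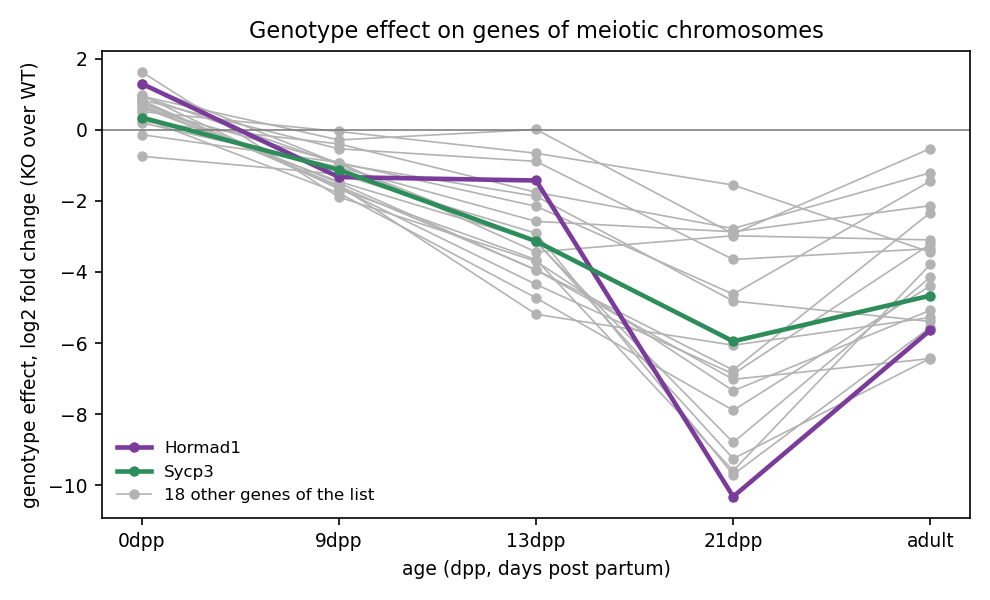
Genotype effect at each age, as log2 fold change of KO over WT from edgeR, for Hormad1 (purple), Sycp3 (green) and 18 other genes of meiotic chromosomes and entry into meiosis (grey). Most lines start above 0 at birth and lie lowest at 21 dpp. There Hormad1 at -10.32 is the lowest line, close to those of Meioc and Majin, and Sycp3 lies at -5.95.

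The 2 genes followed similar courses over the 21 libraries. Pearson's r of their log2(CPM + 1) was 0.96, and among 18074 genes that passed the filter *Hormad1* ranked 6 for likeness to *Sycp3*, and *Sycp3* ranked 14 for likeness to *Hormad1*. Of the genes with a symbol, the most like *Hormad1* were *Spata22* (0.98), *Tex101* (0.97), *Sycp1* (0.97), *Meioc* (0.97) and *Atr* (0.97). Those most like *Sycp3* were *Spata22* (0.98), *Majin* (0.97), *Boll* (0.97), *Hormad1* itself (0.96) and *Piwil1* (0.96). Apart from rows such as *Tex101*, symbols came from the study's tables of genes that differed between genotypes, so the named genes were drawn from those. These values of r are a description. The libraries share age, layout and normalization, and the 4 WT libraries of 21 dpp and adults stand far from the rest. By Spearman's rho the likeness of the pair was 0.89, and 2 of the 5 genes named for *Hormad1* and 1 of the 5 for *Sycp3* stayed among the 5 nearest.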

How the data were processed

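RNA-seq of rRNA-depleted whole testis RNA was analysed in 21 directional libraries, single-end with 75 nt reads at 0 and 9 dpp and paired-end with 150 nt reads at 13 dpp, 21 dpp and in adults. The authors aligned the reads with STAR 2.7.3a to MesAur1.0 and counted them over Ensembl exons with featureCounts 2.0.0, splitting multimapping and overlapping reads as fractions, and deposited these estimated counts without normalization. Of the values, 9.69% were not whole, so they were rounded, although the tests had been planned for whole counts. Reads shared with near-identical or overlapping genes make low counts uncertain. Symbols came from the study's supplementary tables of genes that differed between genotypes, or as with *Tex101* from the count table itself. They cover 1044 of 22285 genes. None of the identifiers was in the reference annotation at hand, of another assembly, so no sequence is shown.

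Every age had its own edgeR model (version 4.0.16, R 4.3.3; TMM, filterByExpr, quasi-likelihood test of the genotype), with 2 libraries per genotype, at 9 dpp WT replicates 1 and 2. Ages were compared in 1 fit per layout. P-values were adjusted by Benjamini-Hochberg over all genes tested, and genes below 0.01 were called. Levels are CPM on joint TMM library sizes, 95% intervals of fold changes are normal approximations, and likeness used log2(CPM + 1). The fits were tested on simulated data. Alternatives were DESeq2 1.42.0, RLE size factors, no filter, joint fits, replicate blocks, left-out libraries and other sets of the 9 dpp libraries. All 5 libraries with DESeq2 and a crossed block at 21 dpp were added after seeing the data. Tables and plots were made with matplotlib 3.10.9, scipy 1.17.1, numpy 2.4.6 and pandas 2.3.3 under Python 3.11.15. The 2 genes and all lists were chosen with earlier results of these data known. Genes named are the pair, *Mov10l1*, list members with an identifier, *Ddx4* and *Dazl*, and for each of the pair the 5 most correlated genes that have a symbol and average 1 CPM or more in a group.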

Additional observations from a re-analysis of the deposited data

Results flagged for a closer look

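The genotype effect on *Hormad1* differed between ages in 2 contrasts, each by edgeR's test of the difference itself. Between 13 and 21 dpp it changed by -8.72 on the log2 scale, and between 0 and 9 dpp by -2.60. *Sycp3* did not meet that threshold by edgeR in either contrast (adjusted p = 0.0150 and 0.0152), but DESeq2 and edgeR with no filter called it in both. The *Hormad1* call was lost in some fits without 1 library and, between 0 and 9 dpp, with all 5 libraries of 9 dpp. That contrast counts 2 libraries of 1 KO animal as 2. Whether the 2 genes differ from each other was not tested.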

How the results depend on the processing

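The genotype effects at 21 dpp and in adults kept their direction and call for both genes under every alternative with a test. Without 1 library they ranged from -11.90 to -9.88 for *Hormad1* and -6.15 to -5.75 for *Sycp3* at 21 dpp, and from -5.84 to -5.44 and -4.91 to -4.45 in adults. WT replicate 2 against KO replicate 1 of 21 dpp, which share a code start, gave -11.84 for *Hormad1*, from 1 KO count, and -5.56 for *Sycp3*, with no test. At 0 dpp *Hormad1* was called by DESeq2 (1.31), with no filter on low counts (1.30) and with a replicate block (1.38), and without 1 library it ranged from 0.93 to 1.93. At 9 dpp the calls were lost for *Hormad1* with all 5 libraries (-1.02 by edgeR and -1.01 by DESeq2), WT replicate 3 alone (-0.087), the KO libraries summed against all 3 WT libraries (-1.02) and the joint fit of 0 and 9 dpp (-1.32). For *Sycp3* they were lost by edgeR in the same settings (-0.93, -0.43, -0.92 and -1.12). With 1 of the 4 libraries left out, which assumes that the lone library varies like the other group, the range was -1.47 to -1.15 for *Hormad1* and -1.25 to -1.01 for *Sycp3*. At 13 dpp *Sycp3* was called by DESeq2 (-3.03), with no filter (-2.97), in the joint fit (-3.09) and with the replicate block (-3.30), and *Hormad1* with the block (-2.31). Without 1 library the ranges there were -4.29 to -2.42 and -5.64 to -0.37.

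Same-numbered libraries deviated together with a correlation of 0.07 at 0 dpp, -0.13 at 9 dpp, 0.18 at 13 dpp, -0.23 at 21 dpp and 0.09 in adults, and no label states that numbers pair animals. The replicate block raised the calls over all genes at 0 dpp from 162 higher and 150 lower to 695 and 618, and at 13 dpp from 16 lower to 471, and besides the calls at 0 and 13 dpp given above it changed none for the 2 genes. A crossed pairing at 21 dpp gave 3760 higher and 4011 lower, against 2547 and 3107 without a block.

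Of the changes with age, that of *Hormad1* in WT from 21 dpp to adults, not called, turned to 0.039 with DESeq2, 0.037 with RLE size factors and 0.010 with no filter, and its change in WT from 0 to 9 dpp to -0.13 with all 5 libraries. *Hormad1* was called in the KO between 13 and 21 dpp with no filter (-3.42), and from 21 dpp to adults with DESeq2 (4.76) and no filter (4.43). The difference of the genotype effect was called for *Sycp3* between 13 and 21 dpp with DESeq2 (-2.93) and no filter (-2.85) and between 0 and 9 dpp with DESeq2 (-1.41) and no filter (-1.47). For *Hormad1* it was called between 21 dpp and adults with no filter (4.42) and lost between 0 and 9 dpp with all 5 libraries (-2.30). Without 1 library, *Hormad1* ranged from -5.04 to 0.69 (KO, 13 to 21 dpp), -0.19 to 0.81 (WT, 0 to 9 dpp), -0.31 to 0.11 (WT, 21 dpp to adults), -10.37 to -4.73 (difference, 13 to 21 dpp) and -3.24 to -2.24 (difference, 0 to 9 dpp). *Sycp3* ranged from -0.17 to 1.62 (KO, 13 to 21 dpp), -0.82 to -0.043 (WT, 0 to 9 dpp), -3.49 to -1.70 (difference, 13 to 21 dpp) and -1.91 to -1.13 (difference, 0 to 9 dpp). The cause was not tested for any of these.

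Of the 18 other meiotic genes, 9 were called higher at 0 dpp by DESeq2, 10 with no filter and 10 with the block. Of all genes 1.76%, 3.41% and 4.25% were called higher in those settings, against 0.991% in the edgeR fit used above. With no filter 1 of the 18 was called lower. At 9 dpp 1 was called lower with all 5 libraries, where 0.355% of all genes were. At 13 dpp 12 were called lower by DESeq2, 14 with no filter, 14 with the block and 10 in the joint fit. The shares of all genes there were 1.30%, 2.08%, 3.55% and 2.05%, against 0.121% in the edgeR fit used above. Leaving out 1 library gave 1 to 9 called higher at 0 dpp, 11 to 15 called lower at 9 dpp and 4 to 12 at 13 dpp. Over all genes the count called lower at 9 dpp was 498, against 56 with all 5 libraries, 303 with WT replicate 3 alone and 1177 with no filter. With 2 choices changed together, the KO libraries summed and WT replicate 3 added, edgeR called 0 lower, where 1233 had an unadjusted p below 0.05, and DESeq2 was not run. The count called higher at 0 dpp was 358 by DESeq2 and 694 with no filter. At 13 dpp 267 were called lower by DESeq2, 25 with RLE size factors, 340 in the joint fit and 427 with no filter. The difference between 0 and 9 dpp had 521 genes called lower, against 175 with all 5 libraries and 942 with no filter, and that between 13 and 21 dpp 569, against 1254 by DESeq2 and 1119 with no filter. By DESeq2 1681 genes rose in WT from 13 to 21 dpp, against 1059, and 1995 in the KO from 21 dpp to adults, against 1278. The likeness of the pair was 0.89 by Spearman's rho and 0.97 over paired-end libraries. WT and KO libraries of *Hormad1* did not overlap at 4 of 5 ages, or at 5 on total counts, and levels on total counts were 0.677 to 1.49 times those on the TMM scale. Depth limits KO *Hormad1* at 13 and 21 dpp, where single libraries held 1, 4 and 10 counts.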
